A study of Mus musculus with 24 samples.

Results

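In liver RNA-seq of mice lacking JNK kinases, 5 loci are described: Fam25c, Gm3219, Pttg1, Timd2 and Hist1h2ba. They are 5 of the 31027 loci of the deposited table, taken by gene name, and were selected on their shifts between knockout and control livers, so those shifts are given as a description with no test. All 5 had a mean of at least 1 FPKM (fragments per kilobase of transcript, scaled to the mapped fragments of the library) over the 24 libraries and so entered the fits, which covered 10562 loci. Hist1h2ba passed that minimum only through the knockout libraries, where it is high. A shift in all knockout groups held for Hist1h2ba alone: Fam25c and Gm3219 were low with the Mapk8 allele, and Pttg1 was low and Timd2 high with the Mapk9 allele.

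The livers came from C57BL/6J mice kept for 16 weeks on either chow or high fat feed. All groups carried Alb-Cre, a transgene whose albumin promoter drives recombination in hepatocytes. The control group carried Alb-Cre alone, and the others were also Jnk1flox/flox, Jnk2flox/flox or both, called Jnk1, Jnk2 and Jnk1Jnk2 below. Crossing 4 genotypes with 2 diets gave 8 groups of 3 libraries each. Other liver cells keep intact alleles in this model, and the labels do not say that the libraries of a group are separate mice. The p-values therefore speak only of the spread among libraries, which may be technical.

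Mapk8 on chromosome 14 encodes JNK1 and Mapk9 on chromosome 11 encodes JNK2, stress-activated kinases that phosphorylate c-Jun. A conditional allele is made in embryonic stem cells and bred onward, so DNA flanking the targeted gene travels with it through crosses until recombination separates them. Genes close to a targeted locus can therefore differ between genotypes along with the allele itself, while a gene on another chromosome is inherited independently of it. Within these groups the allele and the DNA that flanks it cannot be told apart.

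By the deposited locations on mm10, counted from 1, Fam25c lies at chr14:34351882-34355393 and Gm3219 at chr14:34345055-34345658, each 0.97 Mb from the start of Mapk8 (chr14:33377899-33447158). In the GENCODE vM21 annotation 6297 bases separate these neighbours. Pttg1 lies at chr11:43420248-43426248 and Timd2 at chr11:46668960-46707104, at -6.43 and -3.18 Mb from the start of Mapk9 (chr11:49846751-49886421). Hist1h2ba, at chr13:23933773-23934156, is on neither targeted chromosome. GENCODE annotates Fam25c, Pttg1, Timd2 and Hist1h2ba as protein-coding genes on the minus strand and Gm3219 as a processed pseudogene on the plus strand.

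The promoter windows of the members with the largest changes are shown so that these loci can be compared by sequence. They come from the RefSeq table for GRCm38.p6, which is the same build as mm10. Each window runs 5′ to 3′ on the gene's strand, here the minus strand, from 250 bases before the start to 50 after it. Capitals mark matches on either strand to TATAAA (the TATA box), CCAAT (the CCAAT box) and TGAGTCA (the site of AP-1, the factor that contains c-Jun). In these windows no base belongs to more than 1 match. The motifs are held, in that order, by 13.6%, 37.4% and 5.20% of 32851 promoter windows of this length. RefSeq lists Hist1h2ba as H2bc1, and 4 of the 5 members had an entry.

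Fam25c, chr14:34355344-34355643: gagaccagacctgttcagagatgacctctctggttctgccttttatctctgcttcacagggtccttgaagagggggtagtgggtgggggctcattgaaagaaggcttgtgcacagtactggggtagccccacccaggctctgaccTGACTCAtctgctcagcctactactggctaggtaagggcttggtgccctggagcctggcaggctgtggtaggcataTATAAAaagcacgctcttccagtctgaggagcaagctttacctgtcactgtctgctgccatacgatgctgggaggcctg
Pttg1, chr11:43425932-43426231: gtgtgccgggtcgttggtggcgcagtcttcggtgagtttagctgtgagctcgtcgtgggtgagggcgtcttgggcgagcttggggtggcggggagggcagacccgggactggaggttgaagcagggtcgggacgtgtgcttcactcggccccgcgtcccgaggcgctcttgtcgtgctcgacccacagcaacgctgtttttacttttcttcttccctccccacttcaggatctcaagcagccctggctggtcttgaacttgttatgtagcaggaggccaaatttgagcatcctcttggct
Hist1h2ba, chr13:23934107-23934406: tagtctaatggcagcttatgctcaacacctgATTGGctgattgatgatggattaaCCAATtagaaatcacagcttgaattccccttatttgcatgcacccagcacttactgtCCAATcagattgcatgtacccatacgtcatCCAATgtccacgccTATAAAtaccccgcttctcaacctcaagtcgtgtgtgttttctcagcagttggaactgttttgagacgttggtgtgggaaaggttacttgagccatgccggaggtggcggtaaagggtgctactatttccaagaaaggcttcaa

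The Fam25c window held 1 TATAAA and 1 match to TGAGTCA, which reads as TGACTCA on this strand, and no CCAAT. The Pttg1 window held none of the 3 motifs and was 60.3% G and C. Both windows of Timd2 also held none. The Hist1h2ba window held 1 TATAAA and 4 CCAAT matches and was 45.3% G and C. It overlaps the window of Hist1h2aa, the H2A gene that is transcribed away from Hist1h2ba across 305 bases. A match is a string of letters and no evidence of binding.

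Facts of the whole series that touch these loci are few. Mapk8 was at 0.845 to 2.47 FPKM in the 12 libraries with its allele and 3.38 to 5.77 in the other 12. Mapk9 was at 4.33 to 7.79 FPKM in the 12 libraries with its allele and 9.01 to 12.0 in the others, so both targeted genes went with the labels. The summed FPKM ranged from 634849 to 873399 and the relative depth, read from the steps between low values, from 0.299 to 1.0 of the deepest library. The 3 high fat Jnk1Jnk2 libraries stood apart. They had the highest sums, from 849038 to 873399, and their deviation from the mean library went with transcript length, at a Spearman correlation across loci of -0.55 to -0.62, against -0.25 to 0.39 in the other libraries. For each tested call of a member below that rests on them, the value after removal of each library's trend on length is given too. Summed hepatocyte markers were at 16800 to 49000 FPKM per library and cholangiocyte markers at 16.1 to 62.8, as in a tissue made mostly of hepatocytes. Albumin (Alb) was listed at 0 in 4 libraries, so a listed 0 can be a failed estimate.

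Fam25c, a small protein-coding gene, was at 4.99% to 10.8% of the control level wherever the Mapk8 allele was present. On chow it was at 40.8, 42.2 and 55.5 FPKM in the control livers, 51.1, 34.6 and 40.7 in Jnk2, 8.19, 4.46 and 2.35 in Jnk1, and 2.80, 2.75 and 3.10 in Jnk1Jnk2. High fat levels were 46.3, 53.7 and 48.5 FPKM in the control livers, 30.7, 31.8 and 25.3 in Jnk2, 3.79, 4.89 and 4.71 in Jnk1, and 4.21, 2.53 and 0.672 in Jnk1Jnk2. The 12 libraries with the allele, from 0.672 to 8.19 FPKM, did not overlap the 12 without it, from 25.3 to 55.5.

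As a share of control on the same diet, mean Fam25c was 10.8% in chow Jnk1, 6.24% in chow Jnk1Jnk2, 9.02% in high fat Jnk1 and 4.99% in high fat Jnk1Jnk2. Without the Mapk8 allele it was 91.3% in chow Jnk2 and 59.2% in high fat Jnk2. On the log2(FPKM + 1) scale, on which differences are given ± SE and which understates the change of low genes, the change with the Mapk8 allele was -3.27 ± 0.22 on chow and -3.24 ± 0.22 on high fat. The change of Fam25c with the Mapk9 allele was -0.32 ± 0.22 on chow and -0.77 ± 0.22 on high fat. In the order of the 8 group means, the 4 groups with the Mapk8 allele were lowest. Of neighbours among these 4, chow Jnk1Jnk2 and high fat Jnk1 did not overlap and the others did. High fat Jnk2 came next, overlapping neither chow Jnk1 below it nor chow Jnk2 above it, and it lay wholly below the 6 control libraries, which chow Jnk2 overlapped.

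Gm3219 is annotated as a processed pseudogene, a copy of a spliced transcript pasted back into the genome. It followed Fam25c by genotype, with a smaller drop. On chow it was at 30.4, 39.5 and 36.2 FPKM in the control livers, 28.7, 30.2 and 30.4 in Jnk2, 8.20, 4.37 and 8.17 in Jnk1, and 8.35, 7.19 and 6.91 in Jnk1Jnk2. Under high fat feeding the levels were 42.1, 34.4 and 51.0 FPKM in the control livers, 30.7, 36.3 and 17.9 in Jnk2, 6.53, 7.36 and 7.82 in Jnk1, and 10.5, 15.8 and 7.53 in Jnk1Jnk2. All libraries with the Mapk8 allele lay below all without it, although the gap narrowed to 15.8 against 17.9 FPKM on high fat.

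Mean Gm3219 with the allele was 19.5% of control in chow Jnk1, 21.2% in chow Jnk1Jnk2, 17.0% in high fat Jnk1 and 26.5% in high fat Jnk1Jnk2. The change with the Mapk8 allele was -2.05 ± 0.17 on chow and -1.82 ± 0.17 on high fat, and with the Mapk9 allele -0.05 ± 0.17 and -0.04 ± 0.17. The ratio of Gm3219 to Fam25c had a median of 0.746 in chow control and 2.62 in chow Jnk1Jnk2, so the drop was not the same in both. Over the 24 libraries their Pearson correlation on the log2(FPKM + 1) scale was 0.91, and after the group means were removed it was 0.30, a description over libraries that share the same genotype groups.

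Gm3219 cannot be read as a gene of chromosome 14 alone. Its 303-base GENCODE transcript matched a transcript of Bcl7c, on chromosome 7 (chr7:127663337-127708766), over all 303 bases at 100% identity in a blastn search of all annotated transcripts, so fragments within those bases cannot be told apart by sequence. The deposited Gm3219 locus spans 604 bases, and Bcl7c reaches well beyond the match. Bcl7c encodes a subunit of the BAF chromatin remodelling complexes. On chow Bcl7c was at 7.92, 9.31 and 8.25 FPKM in the control livers and 3.68, 3.90 and 4.01 in Jnk1, with 6.07, 5.55 and 3.87 in Jnk2 and 2.81, 5.08 and 3.79 in Jnk1Jnk2. Its high fat levels were 7.36, 5.33 and 7.35 FPKM in the control livers, 3.60, 3.58 and 3.52 in Jnk1, 5.85, 5.84 and 4.46 in Jnk2, and 4.64, 7.18 and 6.71 in Jnk1Jnk2. Bcl7c, singled out after this match and its values were seen, was thus lower in Jnk1 than in control on both diets without overlap.

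The change of Bcl7c with the Mapk8 allele was -0.65 ± 0.12 on chow and -0.29 ± 0.12 on high fat. Its correlation with Gm3219 over the 24 libraries was 0.72, and 0.27 after the group means were removed. How the authors' counting divided fragments that match both loci is not given in the sources used here, and the share of the Gm3219 and Bcl7c changes that comes from common fragments was not tested. Fam25c had no such copy: no other gene's transcript matched it. The longest transcripts of Pttg1, Timd2 and Hist1h2ba had 0 matches of at least 95% identity over at least 100 bases to another gene. Below these limits Pttg1 matched transcripts of 353 other genes, the best being Tcf4 at 97.1% identity over 70 bases. The part of such stretches in the Pttg1 levels was not tested.

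**Figure D1:**
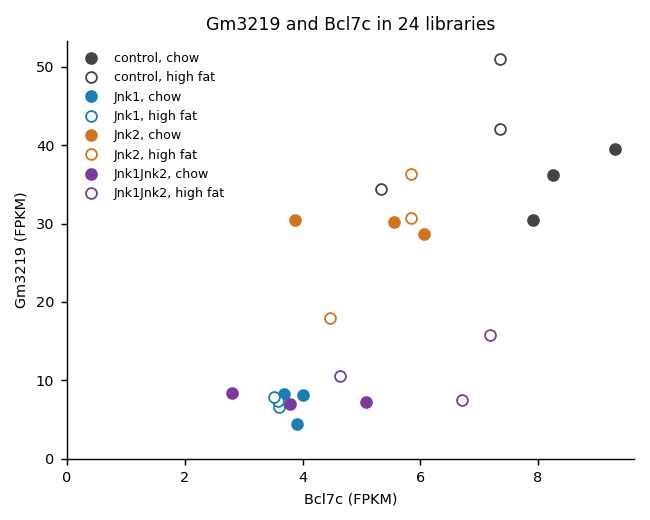
Gm3219 (vertical axis, FPKM) against Bcl7c (horizontal axis, FPKM) in 24 libraries, coloured by genotype, filled on chow and open on high fat. Libraries with the Mapk8 allele lie at 4.37 to 15.8 FPKM of Gm3219, those without it at 17.9 to 51.0, while Bcl7c ranges overlap, 2.81 to 7.18 with the allele and 3.87 to 9.31 without.

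Pttg1 encodes securin, which holds the protease separase inactive until anaphase, and it was at 4.00% to 14.6% of control wherever the Mapk9 allele was present. On chow it was at 30.9, 32.3 and 26.1 FPKM in the control livers, 34.6, 22.8 and 29.4 in Jnk1, 1.31, 0.930 and 1.32 in Jnk2, and 1.53, 2.21 and 1.81 in Jnk1Jnk2. The high fat livers had 28.7, 27.1 and 28.4 FPKM in the control livers, 29.6, 26.5 and 29.4 in Jnk1, 2.74, 2.88 and 1.46 in Jnk2, and 3.71, 3.10 and 5.46 in Jnk1Jnk2. The libraries with the allele, from 0.930 to 5.46 FPKM, did not overlap those without it, from 22.8 to 34.6.

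The change of Pttg1 with the Mapk9 allele was -3.60 ± 0.12 on chow and -2.85 ± 0.12 on high fat. With the Mapk8 allele it was 0.16 ± 0.12 on chow and 0.31 ± 0.12 on high fat. In the order of the group means the 4 groups with the Mapk9 allele were lowest, from chow Jnk2 (1.19 ± 0.224 FPKM, SD, n = 3) through chow Jnk1Jnk2 (1.85 ± 0.339) and high fat Jnk2 (2.36 ± 0.780) to high fat Jnk1Jnk2 (4.09 ± 1.23). Chow Jnk1Jnk2 and high fat Jnk2 overlapped, while the other neighbours in that order did not. The 4 other groups, from 28.1 ± 0.823 to 29.8 ± 3.26 FPKM, overlapped one another.

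Loci listed around securin that could be tested were not low in the same way. Separase (Espl1), Cdc20, Cdk1 and Ccnb1 were below the minimum mean and were not tested. Of 25 loci of a list for securin and anaphase (separase, cyclins, spindle checkpoint, cohesin), chosen with earlier results of these data known, 9 passed the minimum mean and 0 were called on chow in any knockout against control by limma with Benjamini-Hochberg adjustment, with 1, 2 and 3 at an unadjusted p under 0.05 in Jnk1, Jnk2 and Jnk1Jnk2. Of all tested loci 2.20%, 0.454% and 0.161% were called in these chow contrasts. On high fat 0 of the 9 were called in Jnk1 (2 at an unadjusted p under 0.05), 1 higher in Jnk2 (Fzr1, an activator of the anaphase-promoting complex, 0.37 ± 0.11, adjusted p = 0.0386) and 5 lower in Jnk1Jnk2, where 12.4% and 51.2% of all tested loci were called. All 5 in Jnk1Jnk2 were cohesin genes, Stag1, Stag2 and the leading 3: Smc3 fell by 0.54 ± 0.09 (adjusted p = 9.44e-05, limma), Rad21 by 0.39 ± 0.07 (adjusted p = 0.000164) and Smc1a by 0.62 ± 0.12 (adjusted p = 0.000316). Beside these 5 and Fzr1, the 9 tested loci were Pttg1ip, Mad2l1 and a locus shared by Dctn5 and Plk1, so few mitotic partners of securin were tested. Markers of other cell types were also higher in these groups, as group means of summed FPKM in high fat control, Jnk2 and Jnk1Jnk2: cholangiocyte 21.8, 25.6 and 50.7, endothelial 49.3, 71.4 and 71.2, and stellate 21.4, 30.9 and 33.0, and their part in the list changes given here and below was not tested. Hepatocyte marker means were higher too, at 38600, 44600 and 44900 in the same order. That sum includes Alb, listed at 0 in 4 libraries of the series, so no rise is read from these means. The summed FPKM of all loci was also highest in the high fat Jnk1Jnk2 libraries, so these sums do not give shares of cells. The median change of the 9 securin loci was -0.39 in high fat Jnk1Jnk2 against -0.07 over all tested loci, and between -0.07 and 0.02 in the other 5 contrasts. The high fat Jnk1Jnk2 values of this list and of those below rest on the libraries whose deviation went with transcript length. The part of that trend in them was not tested. Separase (Espl1) was at 0.006 to 0.094 FPKM and the proliferation marker Mki67 at 0.049 to 0.359, so Pttg1 was far above both, per length of transcript, in livers without the Mapk9 allele.

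Timd2 encodes TIM-2, a cell surface protein that binds H-ferritin and Sema4a. It was the only one of the linked members that was higher, at 133% to 152% of control, with the Mapk9 allele. On chow it was at 15.1, 14.4 and 12.2 FPKM in the control livers, 12.1, 13.1 and 14.0 in Jnk1, 19.0, 20.8 and 20.9 in Jnk2, and 21.0, 21.8 and 20.4 in Jnk1Jnk2. In high fat livers the levels were 15.0, 15.6 and 16.5 FPKM in the control livers, 17.6, 15.3 and 15.9 in Jnk1, 23.5, 22.7 and 16.4 in Jnk2, and 23.3, 25.8 and 21.7 in Jnk1Jnk2. On chow the groups with and without the allele did not overlap, and on high fat 1 Jnk2 library, at 16.4 FPKM, lay within the range of the libraries without it.

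Relative to control on the same diet, mean Timd2 was 145% in chow Jnk2, 152% in chow Jnk1Jnk2, 133% in high fat Jnk2 and 150% in high fat Jnk1Jnk2, against 94.0% and 104% in Jnk1. The change with the Mapk9 allele was 0.58 ± 0.08 on chow and 0.44 ± 0.08 on high fat, and with the Mapk8 allele -0.01 ± 0.08 and 0.11 ± 0.08. The 4 groups with the Mapk9 allele had the highest means, from 20.2 ± 1.07 FPKM in chow Jnk2 to 23.6 ± 2.03 in high fat Jnk1Jnk2, and neighbours in that order overlapped. Below them, high fat Jnk1 (16.3 ± 1.22 FPKM) and high fat control (15.7 ± 0.778) overlapped, as did chow control (13.9 ± 1.48) and chow Jnk1 (13.1 ± 0.958).

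Among the other TIM family, ferritin and iron uptake genes, chosen with earlier results of these data known, 9 of 11 loci were tested. On chow 1 was called higher in Jnk1, 1 in Jnk2 and 0 in Jnk1Jnk2 by limma, beside 2.20%, 0.454% and 0.161% of all loci. In the last, 2 had an unadjusted p under 0.05. On high fat 1 was higher in Jnk1, 4 were higher and 1 lower in Jnk2, and 3 were higher and 3 lower in Jnk1Jnk2, beside 0.227%, 12.4% and 51.2% of all tested loci. Fth1, the H-ferritin gene, rose by 0.61 ± 0.09 in high fat Jnk2 (adjusted p = 0.000329, limma) and by 0.52 ± 0.09 in high fat Jnk1Jnk2 (adjusted p = 0.000147), while on chow it was at -0.12 ± 0.09 and -0.14 ± 0.09 in those genotypes and was not called. The median change of the list ran from -0.14 to 0.05 on chow and was -0.04, 0.35 and 0.28 in high fat Jnk1, Jnk2 and Jnk1Jnk2, against -0.07 to 0.02 over all tested loci. Timd4, the nearest tested family member to Timd2 on chromosome 11, was at 1.911 to 7.664 FPKM. Havcr1, the closest relative of Timd2 by sequence at 76.7% identity over 1810 bases, was at 0 to 0.095 FPKM and was not tested.

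Hist1h2ba encodes the testis variant of histone H2B, which replaces the somatic form in male germ cells. It was the only member high in every knockout library. On chow it was at 0, 0.387 and 0 FPKM in the control livers, 4.84, 9.26 and 12.5 in Jnk1, 5.67, 13.8 and 10.6 in Jnk2, and 14.5, 13.3 and 20.0 in Jnk1Jnk2. With high fat feeding it was listed at 0 in all 3 control libraries and was at 4.20, 10.4 and 8.61 FPKM in Jnk1, 13.1, 16.0 and 16.2 in Jnk2, and 15.4, 17.5 and 16.6 in Jnk1Jnk2. The 18 knockout libraries, at 4.20 to 20.0 FPKM, did not overlap the 6 control libraries, at 0 to 0.387.

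By the steps of low values, these levels stand for roughly 13 to 79 fragments per knockout library and 0 or 1 per control library. Because 5 of the 6 control libraries are listed at 0, no fold is given. The fitted changes against control, which depend on the 1 FPKM added before the logarithm, were 3.06 ± 0.30 in chow Jnk1, 3.23 ± 0.30 in chow Jnk2, 3.91 ± 0.30 in chow Jnk1Jnk2, and 3.05 ± 0.30, 4.00 ± 0.30 and 4.13 ± 0.30 in the same order on high fat. The order of the knockout means on chow was 8.88 ± 3.86 FPKM in Jnk1, 10.0 ± 4.10 in Jnk2 and 16.0 ± 3.57 in Jnk1Jnk2, with overlapping neighbours. On high fat it was 7.75 ± 3.20, 15.1 ± 1.71 and 16.5 ± 1.06 FPKM, and there Jnk1 did not overlap the other knockouts. The Jnk1Jnk2 mean was below the sum of the Jnk1 and Jnk2 means, 18.9 FPKM on chow and 22.9 on high fat.

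Other germ cell genes did not share the level of Hist1h2ba. Its divergent partner Hist1h2aa, the testis H2A gene on the other side of the 305 bases shown above, was listed at 0 in all 24 libraries. Of 16 loci of a testis germ cell list, 0 reached the minimum mean of 1 FPKM. The summed level of 6 germ cell marker loci was highest in high fat control, at a mean of 2.45 FPKM, a group in which Hist1h2ba was at 0, and 0.351 to 1.53 in the others. Among them Prm1, a protamine gene, has 1 locus at 0 in all libraries and another above 0 in 4, up to 1.461 FPKM. Tnp1, a transition protein gene, was above 0 in 3 libraries, Prm2 in 6 and Ddx4 in 12. Sycp3 was above 0 in all 24, at 0.197 to 1.054 FPKM.

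Neither did the histone genes as a whole. Of 72 other histone loci, 14 were tested. Called higher and lower were 0 and 1 in chow Jnk1, 0 and 0 in chow Jnk2 and chow Jnk1Jnk2 (limma, with 4 and 1 at an unadjusted p under 0.05), while among the high fat contrasts Jnk1 had 0 and 1, Jnk2 had 2 and 0, and Jnk1Jnk2 had 6 and 0, where 0.227%, 12.4% and 51.2% of all tested loci were called in either direction. The chow shares over all tested loci were 2.20%, 0.454% and 0.161% in Jnk1, Jnk2 and Jnk1Jnk2. The median change of the 14 was between -0.16 and 0.01 outside high fat Jnk1Jnk2 and 0.31 within it, against -0.07 over all loci there. Hist1h2bc, an H2B gene at -249.6 kb that is highly expressed in these livers, fell by 0.61 ± 0.13 in chow Jnk1 (adjusted p = 0.0189, limma) and by 0.71 ± 0.13 in high fat Jnk1 (adjusted p = 0.0217), opposite in sign to Hist1h2ba, and rose by 0.33 ± 0.13 in high fat Jnk1Jnk2 (adjusted p = 0.0426), the same sign. Hist1h2bj, whose transcript is the closest to Hist1h2ba at 92.5% identity over 348 bases, was above 0 in 5 libraries, at 0.197 and 0.618 FPKM in chow control, 0.282 and 0.522 in a chow and a high fat Jnk1Jnk2 library, and 15.4 in high fat Jnk2 replicate 3.

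**Figure D2:**
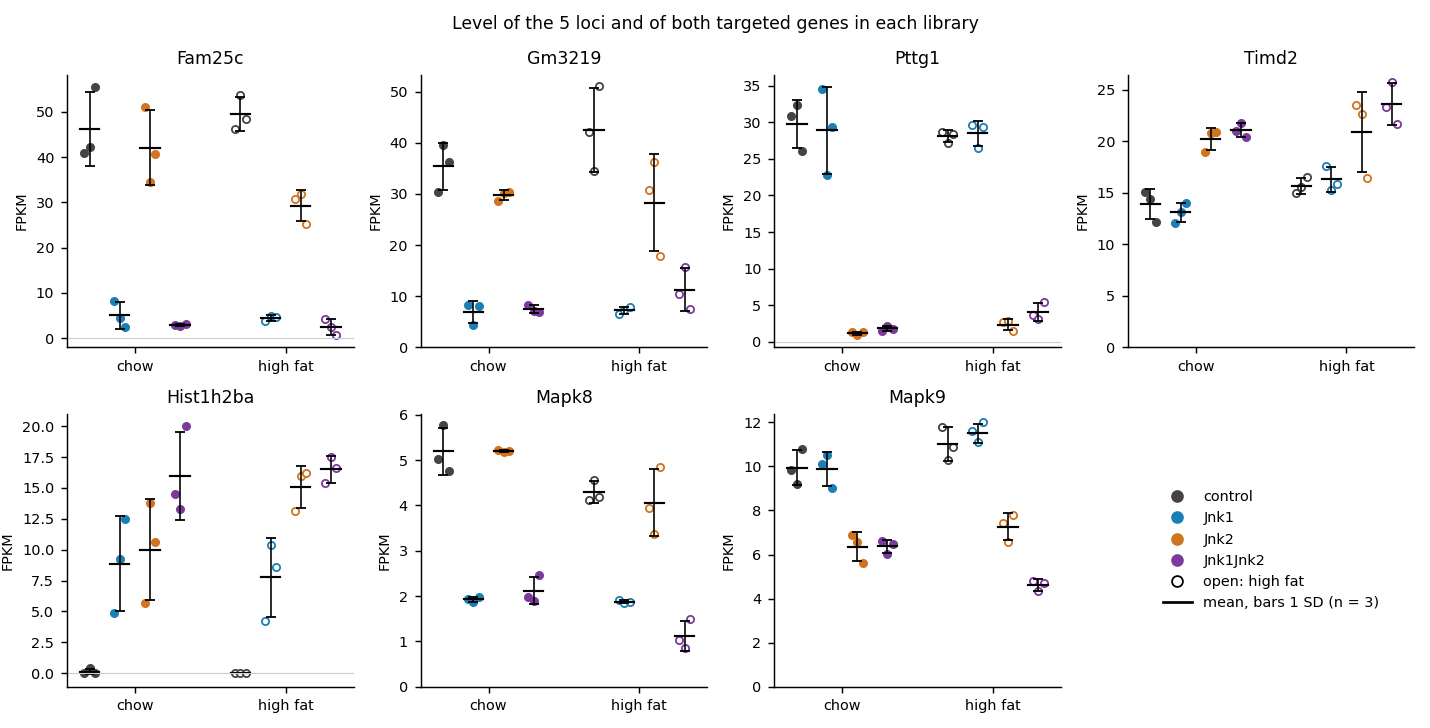
Level in FPKM (vertical axis) of the 5 loci, Mapk8 and Mapk9 in each library by diet and genotype, with group means and SD bars (n = 3). Fam25c and Gm3219 split by the Mapk8 allele, Pttg1 and Timd2 by the Mapk9 allele, and Hist1h2ba by knockout against control, with control at 0 to 0.387 FPKM.

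Calls of the members in the contrasts that chose them are counts beside a background, and nothing is read from them. In knockout against control, 3 of 5 members were called in chow Jnk1, where 2.20% of tested loci were called by limma (adjusted p under 0.05), 3 in chow Jnk2 (0.454%) and 5 in chow Jnk1Jnk2 (0.161%). On high fat the counts were 3 in Jnk1 (0.227%), 3 in Jnk2 (12.4%) and 5 in Jnk1Jnk2 (51.2%). The 3 contrasts of a diet share their control libraries. In the contrast of groups with an allele against groups without it, 3 members were called for Mapk8 on chow (0.104%), 3 for Mapk9 on chow (1.87%), 3 for Mapk8 on high fat (20.9%) and 4 for Mapk9 on high fat (48.5%). Libraries with and without an allele did not overlap at 2 members for Mapk8 (0.0284% of tested loci) and 1 member for Mapk9 (0.0189%), and knockout libraries did not overlap control at 1 member (0.0379%).

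Few other loci shared those patterns. The 3 loci without overlap for the Mapk8 allele were Mapk8, Fam25c and Gm3219, and the 2 for the Mapk9 allele were Mapk9 and Pttg1. Those that separated all knockout from all control libraries were Hist1h2ba, which was higher, and Sh3pxd2a, Slc39a8 and Stat5b, which were lower, at gaps as small as 8.93 against 8.94 FPKM for Stat5b. Of the 11 loci called for the Mapk8 allele on chow, 3 were on chromosome 14, namely Mapk8, Fam25c and Gm3219, and 1 was Bcl7c. These loci were picked out by their values, so the lists are a description.

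Most tested loci near the targeted genes were not called on chow. Within 10 Mb of Mapk8, leaving out the members and the targeted gene, 73 of 322 loci were tested, and on chow 0 were called for the Mapk8 allele by limma, while 12 had an unadjusted p under 0.05. The median size of their chow change was 0.07, against 0.061 over all loci, and their largest chow change was that of Lrtm1 (0.82 ± 0.18, adjusted p = 0.172). Lrtm1, at -4.36 Mb from Mapk8, was also higher with the allele on high fat (0.98 ± 0.18, adjusted p = 0.00353, limma). In high fat Jnk1 against control alone it was at 1.2 (adjusted p = 0.0581). On high fat 19 of the 73 (26.0%) were called, near the 20.9% of all loci.

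Apart from Gm3219, no tested locus between Mapk8 and Fam25c, nor Mmrn2 on the far side, was called on chow. Gdf10, encoding a growth factor of the TGF-beta family, 0.55 Mb from Mapk8 and picked out after its values were seen, was at -0.36 ± 0.11 on chow (adjusted p = 0.513, limma) and fell by 0.92 ± 0.11 on high fat (adjusted p = 7.05e-05). In high fat Jnk1 against control alone it was at -0.57 (adjusted p = 0.105, limma). Glud1, encoding glutamate dehydrogenase and at -34.3 kb from Gm3219, was at -0.20 ± 0.09 on chow (adjusted p = 0.983, limma) and -0.34 ± 0.09 on high fat (adjusted p = 0.0170). Mmrn2, an endothelial matrix protein gene 23.6 kb on the other side of Fam25c, was at 0.27 ± 0.07 on chow (adjusted p = 0.361) and 0.12 ± 0.07 on high fat (adjusted p = 0.228). In high fat Jnk1 against control alone Mmrn2 was called, at 0.53 (adjusted p = 0.0254, limma), while Glud1 was at -0.21 (adjusted p = 0.56). With the allele, Fam25c was thus at -3.27 on chow, Glud1 at -0.20 and Mmrn2 at 0.27.

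Within 10 Mb of Mapk9, 108 of 280 loci were tested apart from Pttg1, Timd2 and Mapk9, and on chow 6 (5.56%) were called for the Mapk9 allele, against 1.87% of all loci. They were Pwwp2a (0.41 ± 0.09, adjusted p = 0.0301, limma), Mgat1 (-0.34 ± 0.08, adjusted p = 0.0319), Rnf187 (-0.33 ± 0.08, adjusted p = 0.0475), Trim41 (-0.32 ± 0.06, adjusted p = 0.0149), Sap30l (-0.30 ± 0.07, adjusted p = 0.0372) and Shroom1 (-0.24 ± 0.06, adjusted p = 0.0393). Shroom1 alone was called in the same direction on high fat (-0.52 ± 0.06, adjusted p = 1.15e-06). The count was fragile: it ranged from 0, without chow Jnk1Jnk2 replicate 1, to 8 over fits that each leave out 1 library, and it was 1 with median-of-ratios size factors. It was also 1 or 2 without any of 8 other chow libraries: all 3 of control, Jnk1 replicates 1 and 3, Jnk2 replicates 2 and 3, and Jnk1Jnk2 replicate 3. On high fat 50 of the 108 (46.3%) were called, near the 48.5% of all loci.

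The nearest tested loci of Pttg1 and Timd2 had smaller changes on chow. Slu7, a splicing factor gene that begins 7492 bases beyond Pttg1, was at a change of -0.06 ± 0.08 on chow (adjusted p = 0.753, limma) and -0.28 ± 0.08 on high fat (adjusted p = 0.0065). On the other side, Ccng1, encoding cyclin G1, lies at -2671.7 kb and was at 0.11 ± 0.10 on both diets (adjusted p = 0.569 and 0.371). Timd4, 141.8 kb from Timd2, was at 0.24 ± 0.14 on chow (adjusted p = 0.385) and rose by 0.43 ± 0.14 on high fat (adjusted p = 0.0185), where Timd2 was at 0.44 ± 0.08. Med7, a Mediator subunit gene 232 kb to the other side, was at 0.01 ± 0.05 (adjusted p = 0.932) and 0.13 ± 0.05 (adjusted p = 0.0532). Kupffer cell markers, a list for the cell type that expresses Timd4, summed to 84.0 to 105 FPKM by group on chow and 159 to 194 on high fat, and their part in the Timd4 values was not tested.

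**Figure D3:**
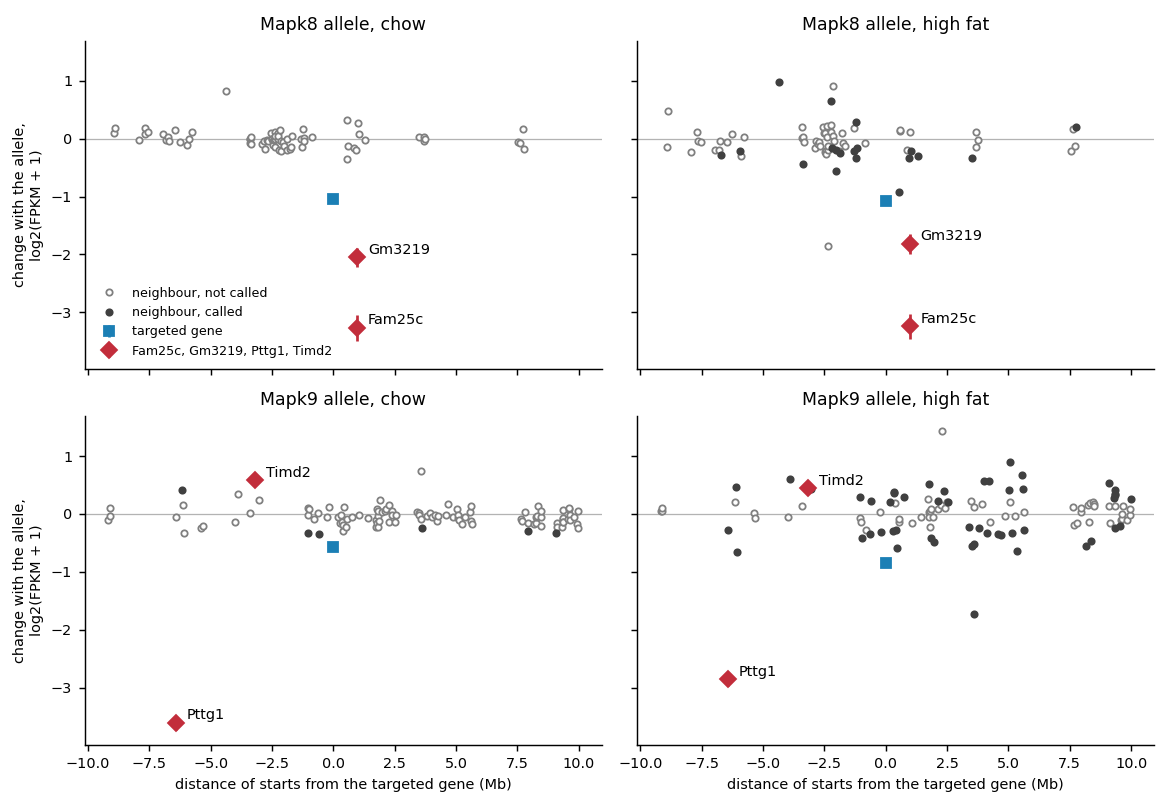
Change with an allele on the log2(FPKM + 1) scale (vertical axis) against distance of starts from the targeted gene in Mb (horizontal axis), for Mapk8 (top) and Mapk9 (bottom) on chow and high fat. Diamonds are the linked members with SE bars, squares the targeted genes and circles their tested neighbours, filled where called; Fam25c at 0.97 Mb and Pttg1 at -6.43 Mb lie below their neighbours in all 4 panels.

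Around Hist1h2ba, 18 of 68 loci within 1 Mb were tested. Knockout against control called 2 of them (11.1%) in chow Jnk1, 0 in chow Jnk2, 0 in chow Jnk1Jnk2 (limma, with 4 and 2 at an unadjusted p under 0.05), and 1, 2 and 7 (38.9%) in high fat Jnk1, Jnk2 and Jnk1Jnk2. Over all tested loci the shares were 2.20%, 0.454% and 0.161% in the chow contrasts and 0.227%, 12.4% and 51.2% in the high fat contrasts. The last 2 counts thus lie near or below the background. Its nearest tested neighbour Slc17a4, a phosphate transporter family gene at -35.9 kb, was lower where Hist1h2ba was higher, at -0.69 ± 0.15 in chow Jnk1 (adjusted p = 0.0184, limma) and -1.0 ± 0.15 in high fat Jnk1Jnk2 (adjusted p = 2.6e-05), and was not called in the other 4 contrasts. Lrrc16a, 78.7 kb to the other side, was called in none, with changes from -0.39 ± 0.19 to 0.14 ± 0.19. Without high fat control replicate 1 the 12 calls over the 6 contrasts became 6.

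**Figure D4:**
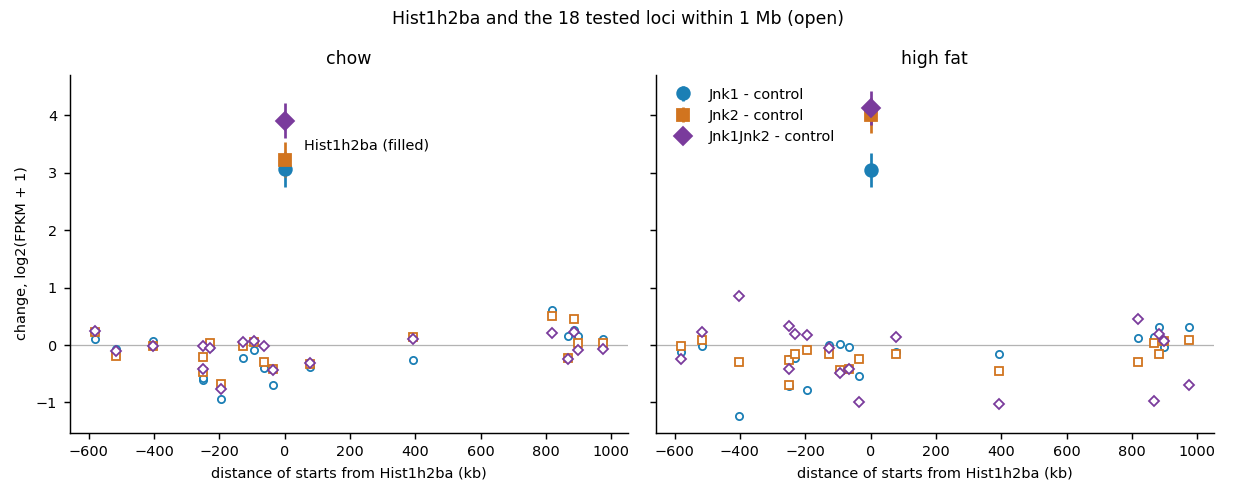
Change of knockout against control on the log2(FPKM + 1) scale (vertical axis) against distance from Hist1h2ba in kb (horizontal axis), by genotype and diet. Hist1h2ba (filled, SE bars) lies at 3.05 to 4.13, and the 18 tested loci around it (open) lie far below it, with Slc17a4 at -0.69 in chow Jnk1.

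Differences among knockouts separate the alleles. Those in which the members differ by the allele that chose them are given as counts only: 4 of 5 members were called in chow Jnk2 against Jnk1 (0.237% of tested loci), 2 in chow Jnk1Jnk2 against Jnk1 (3.52%) and 2 in chow Jnk1Jnk2 against Jnk2 (0.0473%). On high fat the counts were 4 (14.5%), 4 (56.6%) and 3 (48.5%). The contrasts in which the linked allele is the same on both sides were not themselves used by the choice. Their knockout libraries did enter it, so these tests are not wholly independent of the choice. On chow, Jnk1Jnk2 minus Jnk1 was -0.51 for Fam25c (95% interval -1.17 to 0.15, adjusted p = 0.394, limma) and 0.14 for Gm3219 (-0.37 to 0.65, adjusted p = 0.804). Jnk1Jnk2 minus Jnk2 was 0.38 for Pttg1 (0.01 to 0.75, adjusted p = 1, limma) and 0.06 for Timd2 (-0.17 to 0.29, adjusted p = 1). These intervals leave room for modest differences, and none was called.

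On high fat the same contrasts rest on the libraries that stand apart. Fam25c fell by 0.80 ± 0.32 from Jnk1 to Jnk1Jnk2 (adjusted p = 0.0387, limma), with 2 of 3 Jnk1Jnk2 libraries below the Jnk1 range, and without high fat Jnk1Jnk2 replicate 3 the difference was -0.34 (adjusted p = 0.313). It also missed the threshold without Jnk1 replicate 2 (-0.74, adjusted p = 0.0957), Jnk1 replicate 3 (-0.76, adjusted p = 0.0896) or Jnk1Jnk2 replicate 2 (-0.88, adjusted p = 0.0517), with no filter (-0.80, adjusted p = 0.0738), with size factors (-0.69, adjusted p = 0.0814) and with quantile normalization (-0.58, adjusted p = 0.139). With the length trend removed it was larger, at -1.27 (adjusted p = 0.00687). Pttg1 rose by 0.60 ± 0.18 from Jnk2 to Jnk1Jnk2 (adjusted p = 0.00868), with all 3 libraries above the Jnk2 range, and by 0.42 (adjusted p = 0.0541) with the length trend removed. That call was also lost without Jnk2 replicate 3 (0.39, adjusted p = 0.0713) or Jnk1Jnk2 replicate 3 (0.42, adjusted p = 0.0619). Gm3219 was at 0.52 (0.01 to 1.03, adjusted p = 0.0769) from Jnk1 to Jnk1Jnk2 and Timd2 at 0.18 (-0.05 to 0.41, adjusted p = 0.176) from Jnk2 to Jnk1Jnk2. Neither was called, but Gm3219 was called with size factors (0.63, adjusted p = 0.0393), quantile normalization (0.60, adjusted p = 0.0385) and array weights (0.64, adjusted p = 0.00943). It was also called without Jnk2 replicate 3 (0.52, adjusted p = 0.0424) or Jnk1Jnk2 replicate 3 (0.76, adjusted p = 0.0185), and was at 0.15 (adjusted p = 0.672) with the length trend removed. Timd2 was called with size factors (0.32, adjusted p = 0.0414) and was at 0.29 (adjusted p = 0.068) with the length trend removed.

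Differences of Hist1h2ba among knockouts rest on the libraries that chose it, so they are given with no test. On chow Jnk2 minus Jnk1 was 0.17 ± 0.30, Jnk1Jnk2 minus Jnk1 0.84 ± 0.30 and Jnk1Jnk2 minus Jnk2 0.68 ± 0.30. On high fat the same differences were 0.95 ± 0.30, 1.07 ± 0.30 and 0.12 ± 0.30, with all 3 Jnk1 libraries below the Jnk2 and Jnk1Jnk2 libraries. With the length trend removed the high fat difference of Jnk1Jnk2 from Jnk1 was 0.61, and without high fat Jnk1 replicate 1 that of Jnk2 from Jnk1 was also 0.61.

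High fat against chow, a contrast the choice did not use although its libraries entered the choice, left most members without a call. In control 0 of 5 members were called by limma, where 16.3% of tested loci were, and in Jnk1 0 of 5 (15.0%). In Jnk2 1 of 5 was called (26.0%) and in Jnk1Jnk2 1 of 5 (56.9%), Pttg1 each time. Hist1h2ba, counted among the 5, passed the minimum mean only through the knockout libraries, so nothing is read from its lack of a call. Its control libraries, at 0 to 0.387 FPKM, left no level on which diet could act visibly. In control 0 of the 5 had an unadjusted p under 0.05, and in Jnk1 Timd2 had one, with a difference of 0.29 (0.07 to 0.52, adjusted p = 0.0758). That one was called with array weights (0.36, adjusted p = 0.00898) and without high fat Jnk2 replicate 3 (0.29, adjusted p = 0.0208). In Jnk1Jnk2 the difference of Fam25c was -0.31 (-0.97 to 0.35, adjusted p = 0.421), and with the length trend removed it was called at -0.89 (adjusted p = 0.0461). Gm3219 was at 0.48 (-0.03 to 0.99, adjusted p = 0.102) there. It was called with array weights (0.55, adjusted p = 0.0296) and without high fat Jnk1Jnk2 replicate 3 (0.71, adjusted p = 0.0254), and was at 0.04 (adjusted p = 0.914) with the length trend removed.

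Pttg1 rose on high fat in the groups with the Mapk9 allele. The difference was 0.59 ± 0.18 in Jnk2 (adjusted p = 0.0178, limma), higher in 3 of 3 libraries, and 0.82 ± 0.18 in Jnk1Jnk2 (adjusted p = 0.000664), again with 3 of 3 above the chow range. With the length trend removed the Jnk1Jnk2 difference was 0.40 (adjusted p = 0.0487). In control it was -0.08 (-0.44 to 0.29) and in Jnk1 0 (-0.37 to 0.36), at levels near 28 FPKM. The Jnk2 call was lost without chow Jnk2 replicate 2 (0.51, adjusted p = 0.0757), high fat Jnk2 replicate 1 (0.50, adjusted p = 0.0854) or 2 (0.48, adjusted p = 0.0868), and with the length trend removed (0.41, adjusted p = 0.0676). Summed cycling cell markers, 5 loci, had means of 1.85 FPKM on chow and 1.58 on high fat in Jnk2, and 1.53 and 2.08 in Jnk1Jnk2, and their part in the Pttg1 values was not tested. In bulk tissue, fewer cells of a type and less RNA per cell cannot be told apart.

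The dependence of a knockout effect on diet, high fat effect minus chow effect, was called for 0 members in Jnk1 (0% of loci called, 545 with an unadjusted p under 0.05), 0 in Jnk2 (9.52%) and 1 in Jnk1Jnk2 (34.9%). That member was Pttg1, at 0.89 ± 0.25 (adjusted p = 0.00972, limma). Its fitted change in Jnk1Jnk2 was -3.43 on chow and -2.54 on high fat. Both changes belong to the contrasts that chose the member, so the p of their difference is read with that limit. With the length trend removed the difference was 0.54 (adjusted p = 0.0868). In Jnk2 the dependence of Pttg1 was 0.67 (0.15 to 1.19, adjusted p = 0.0894), and it was called with array weights (0.86, adjusted p = 0.00318) and without high fat Jnk2 replicate 3 (0.88, adjusted p = 0.0247). Nothing is read from the lack of a call for Hist1h2ba, which passed the minimum mean only through the knockout libraries.

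**Figure D5:**
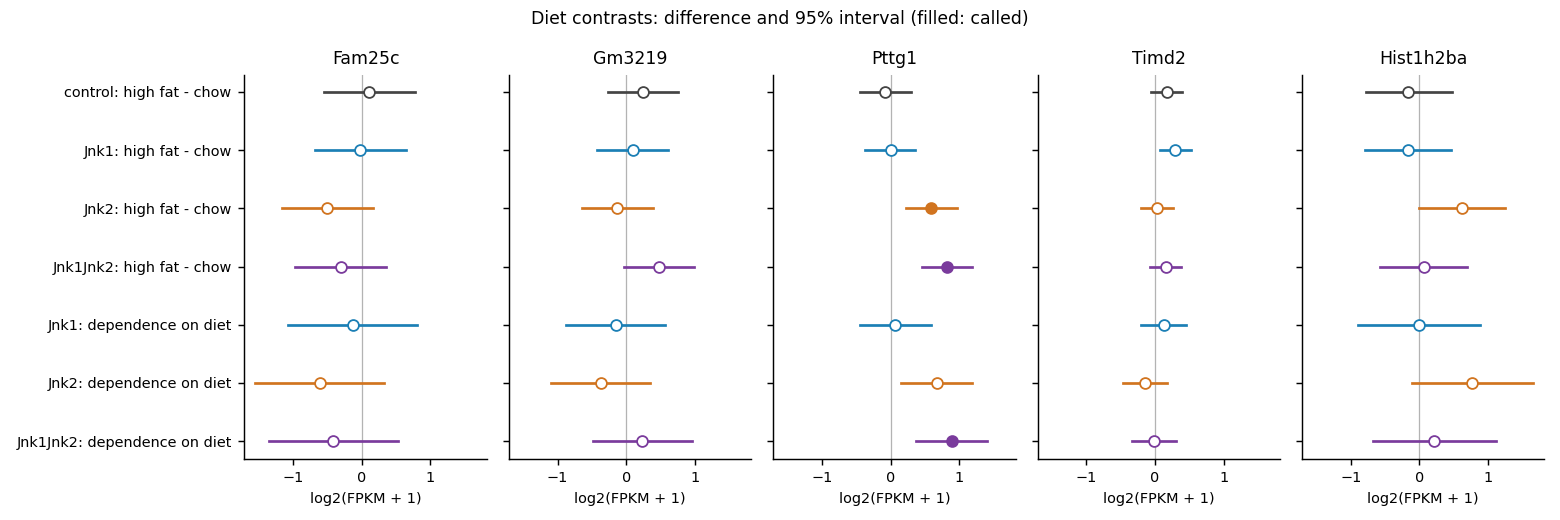
Differences on the log2(FPKM + 1) scale (horizontal axis) with 95% intervals for high fat minus chow in each genotype and for the dependence of each knockout effect on diet, by member. Filled points were called; these are Pttg1 in Jnk2 and Jnk1Jnk2, at 0.59 and 0.82, and its dependence in Jnk1Jnk2, at 0.89.

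Likeness over the 24 libraries, as Pearson correlation of log2(FPKM + 1), led back to the targeted genes. Fam25c was most like Mapk8 (0.91), and Gm3219 had 0.80 with both BC003348 and Mapk8. Pttg1 was most like Mapk9 (0.82), and Timd2 was opposite to Mllt6 (-0.84) and Mapk9 (-0.83). After group means were removed the values with the targeted gene were -0.44, -0.64, -0.30 and -0.56, so these likenesses lie between groups, which share genotype. Loci near a targeted gene also stood among the most opposite: Thg1l (-0.76) and Pwwp2a (-0.70) to Pttg1, and Lrtm1 (-0.65) to Gm3219. Within groups these were -0.05, -0.20 and 0.25. Thg1l lies at -3.9 Mb from Mapk9. With the Mapk9 allele it was at 0.34 ± 0.11 on chow (adjusted p = 0.103, limma) and 0.60 ± 0.11 on high fat (adjusted p = 0.000241). In high fat Jnk2 against control alone Thg1l was at 0.76 (adjusted p = 0.00385). Hist1h2ba was most like Hadha (0.72), a mitochondrial fatty acid oxidation gene, and most opposite to Acad9 (-0.80) and Atxn1 (-0.79), with 0.32, -0.41 and -0.45 after group means were removed. Among the members, Pttg1 and Timd2 had -0.80 over all libraries and 0.31 within groups.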

How the data were processed

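RNA-seq of liver was deposited as FPKM per locus for 24 libraries, 3 in each of 8 groups. Per the submitters' processing notes the authors used TopHat, Cufflinks and Cuffdiff on mm10 to make these FPKM values, and versions and the rule for fragments with several matches are not given in the sources used here. FPKM is scaled to length and to the mapped total, so no count model was used and the absolute depth is unknown. Starts were read as counted from 0, since 7350 of 20451 loci matched to GENCODE vM21 start 1 base before the annotated start, and they are written counted from 1. Groups were taken from the titles. limma-trend (limma 3.58.1, R 4.3.3) was fitted to log2(FPKM + 1) at the 10562 loci with a mean of at least 1 FPKM, as a single model with 8 group means and 16 residual degrees of freedom. Calls need a p under 0.05 after Benjamini-Hochberg adjustment, done separately in 23 contrasts. An allele contrast compares, within a diet, the 2 groups with a conditional allele and the 2 without it. The length trend is a loess curve per library (span 0.5), fitted to deviations from the mean library against log2 transcript length. With 3 libraries against 3 the smallest two-sided p of an exact permutation test is 0.1, so none was used for single loci. The members, gene lists and alternatives were chosen with earlier results of these data known. Named loci are the members, the targeted genes, up to 8 called neighbours per targeted gene and up to 4 called loci per list (not all are printed), the nearest tested loci and those most like a member, and others are marked as picked by value. Copies were sought with blastn 2.17.0 at an E-value up to 1e-10. The fit was tested on simulated data.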

Additional observations from a re-analysis of the deposited data

Results flagged for a closer look

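The effect of Jnk1Jnk2 on Pttg1 differed between diets, by 0.89 ± 0.25 on the log2(FPKM + 1) scale (high fat effect minus chow effect, adjusted p = 0.00972 by limma). Pttg1 was at 1.53, 2.21 and 1.81 FPKM in chow Jnk1Jnk2 and at 3.71, 3.10 and 5.46 in high fat Jnk1Jnk2, so it was higher on high fat in 3 of 3 libraries, while control was at 26.1 to 32.3 FPKM on both diets. It is marked because the difference between the diets was itself tested. Both effects that make it up are knockout against control contrasts, on which the members were selected. The high fat Jnk1Jnk2 libraries stand apart by transcript length, and with the length trend removed the value was 0.54 (adjusted p = 0.0868). Over the fits that leave out 1 library it stayed between 0.71 and 1.03.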

How the results depend on the processing

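With FPKM and no counts, depth limits Hist1h2ba in control, where 1 fragment is worth up to 0.602 FPKM. The 5 members had 2 calls over the 4 diet contrasts, 1 over the 3 contrasts of diet dependence and 19 over the 6 contrasts between knockouts. With array weights the first became 4 and the second 2, and over fits that leave out 1 library they ranged from 1 to 3, from 1 to 2 and from 17 to 20. Neighbours called for Mapk8 on chow, 0, became 1 with array weights and ranged from 0 to 1 over left-out libraries. In chow Jnk1 against control alone, where 2.20% of all tested loci were called, 4 were called. On high fat the 19 became 10 with quantile normalization, 29 with array weights, 7 with the length trend removed and 38 within 20 Mb. Over left-out libraries the 19 ranged from 9 (without high fat control replicate 1 or high fat Jnk1 replicate 2) to 29 (without high fat control replicate 2). In high fat Jnk1 against control alone, where 0.227% of all tested loci were called, 1 was called. Neighbours called for Mapk9 on chow, 6, became 1 with no filter, size factors or quantile normalization, 10 with array weights, 2 with the length trend removed and 3 within 5 Mb, and ranged from 0 to 8. In chow Jnk2 against control alone, where 0.454% of all tested loci were called, 0 were called. On high fat the 50 became 30 within 5 Mb and 98 within 20 Mb, and ranged from 44 to 53. In high fat Jnk2 against control alone, where 12.4% of all tested loci were called, 15 were called. Calls around Hist1h2ba over the 6 knockout contrasts, 12, became 19 with array weights and ranged from 6 to 15. Calls of the securin list, 6, became 10 with array weights and ranged from 5 to 6, those of the histone list, 10, ranged from 5 (without high fat control replicate 1) to 12, and those of the TIM and ferritin list, 14, from 13 to 15. With size factors the mean of Gm3219 in chow Jnk2 was 30.9 FPKM, of Timd2 in chow Jnk1Jnk2 22.3 and of Pttg1 in high fat control 26.7. The causes were not tested. Same-numbered libraries did not deviate together (mean correlation -0.016 over 84 pairs), and with the replicate number as a block the counts were 2, 1 and 19 for the members and 0, 19, 5 and 50 for the neighbours. The use of Jnk1 or Jnk2 against control alone for the neighbours, and removal of the length trend from diet contrasts, were chosen after seeing the data. Over these settings 0 called differences changed sign, while 52 values, of 25 differences not called in either fit, did.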
